A study of Mus musculus with 12 samples.

Results

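The respiratory chain and ATP synthase genes were examined in the hippocampus of 12 wild-type C57BL/6 mice, across stigmasterol and vehicle injections and across 6 h and 1 h after injection. Protein-coding genes were taken by symbol (Nduf subunits, Sdha to Sdhd, Uqcr genes and Cyc1, Cox4 to Cox8 genes, Atp5 genes and the mitochondrial mt-Nd, mt-Co, mt-Cytb and mt-Atp genes) and kept where the raw counts averaged at least 10 per library. Of 99 genes that matched by name, 90 were members, out of 21532 genes in the table. Of the members, 83 are encoded in the nucleus and 7 in mitochondrial DNA. All 90 also passed the filter on low counts and were among the 18382 genes tested.

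The 4 groups were stigmasterol 6 h (replicates 13, 22 and 23), vehicle 6 h (replicates 12, 14 and 21), stigmasterol 1 h (replicates 1, 11 and 8) and vehicle 1 h (replicates 4, 5 and 9), with 3 mice in each group and 1 library per mouse. Injections were intraperitoneal. One label field gives the compound as beta-sitosterol at 100 mg/kg, while the agent field and sample descriptions give stigmasterol, and the name stigmasterol is used here. Age, sex, clock time, the composition of the vehicle and the strandedness of the libraries are not given in the sources used here, and mice taken at 6 h and at 1 h may also differ in the hour of day. Expression is given as CPM, that is counts scaled to a common library total after TMM normalization, and levels of different genes are compared only as CPM per kilobase of the coding transcript with the longest coding sequence.

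The respiratory chain passes electrons from NADH (complex I) and succinate (complex II) through ubiquinone to complex III, then by cytochrome c to complex IV, where oxygen is reduced. Complexes I, III and IV pump protons, and ATP synthase (complex V) uses the resulting gradient to make ATP, on which neurons depend for ion pumping and synaptic transmission. Complex II is built from nuclear genes alone, whereas the others combine nuclear-encoded subunits with core subunits encoded in mitochondrial DNA.

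By complex, the nuclear members were 35 subunits of complex I, 4 of complex II, 9 of complex III, 18 of complex IV and 17 of complex V. Ndufa4 and Ndufa4l2 are counted with complex IV despite their names. The 7 mitochondrial members were mt-Nd1, mt-Nd2, mt-Nd4, mt-Nd5 and mt-Nd6 of complex I, mt-Cytb of complex III and mt-Co1 of complex IV. Just inside the minimum lay Cox8b with a mean of 23.5 counts and Cox4i2 with 33.2. Just outside lay Cox7b2 with 4.17 counts and mt-Nd3 with 2.42. The genes mt-Co2, mt-Co3, mt-Atp6, mt-Atp8, mt-Nd4l, Cox8c and a second Atp5o identifier were not analysed here.

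The mouse nuclear genome carries a copy of part of the mitochondrial genome, annotated as pseudogenes at chr1:24611535-24616197 (GRCm38, minus strand). To show how close that copy is, the first 90 bases of mt-Nd3 (MT:9459-9548, plus strand) are set against those of its nuclear copy Gm28438 (chr1:24613030-24613119, minus strand), both read from the GENCODE M21 transcripts on GRCm38. The capital marks the base that differs.
mt-Nd3: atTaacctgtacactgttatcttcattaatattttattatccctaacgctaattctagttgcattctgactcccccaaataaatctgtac
Gm28438: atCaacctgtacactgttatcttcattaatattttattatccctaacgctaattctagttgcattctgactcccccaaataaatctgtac
Over 345 aligned bases, 344 were identical, and the substitution was T3C, with position 1 at the 5′ end of the gene and the mt-Nd3 base given first. Of all 50-base words of each gene, the share also present in another annotated gene was 98.0% for mt-Nd3, 62.2% for mt-Nd4 and 51.1% for mt-Co1. It was 8.19% for mt-Nd2, 7.61% for mt-Nd5 and 0% for mt-Nd1, mt-Nd6 and mt-Cytb. Values of mt-Nd4 and mt-Co1 are therefore uncertain, since reads from shared stretches could have been split or left uncounted.

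Nuclear members shared words with processed pseudogenes and also with other annotated genes, protein-coding ones among them. The gene sharing most words was an antisense gene, D430001F17Rik, for Atp5o and a lncRNA, Gm26631, for Cox5a. Of 83, 37 shared no 50-base word with another gene and 17 shared over 20% of them. The shared percentage reached 84.9% for Atp5l (subunit g of ATP synthase), 47.6% for Atp5o, 43.4% for Uqcrb, 39.7% for Ndufs3, 38.4% for Atp5g2, 37.6% for Atp5f1, 36.9% for Atp5h and 32.1% for Cox5a. Their levels are uncertain for the same reason. The median level was 48.1 CPM per kb in the 17 members with over 20% shared and 81.9 CPM per kb in the other nuclear members.

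Promoters were read from RefSeq (GRCm38.p6), 250 bases before to 50 after the gene start, and 67 of the 83 nuclear members were matched. The words searched, on both strands, were GCGCATG (part of the site bound by NRF1, a regulator of respiratory genes), CCGGAAG (an ETS family word, as bound by GABP), AAGATGG (part of a YY1 site) and TATAAA. None of these words contains another. The NRF1 word occurred in 13 of 67 members (19.4%), against 7.18% of 12101 tested genes with a promoter. The ETS word occurred in 16 members (23.9% against 17.5%), the YY1 word in 11 (16.4% against 7.80%) and TATAAA in 6 (8.96% against 9.19%). To show the words in place, stretches with up to 30 bases on either side are given 5′ to 3′ along the gene, with the word in capitals. The first 3 carry the NRF1 word, in Ndufa6 on the opposite strand. The last 2 carry the ETS word on the opposite strand. Ndufa6, Atp5h and Uqcrh were called lower at 6 h than at 1 h. Atp5g2 had the lowest level of complex V, and Cox6a1 stood next to Cox4i1 at the top of complex IV.
Atp5g2 (chr15:102671053-102671119, minus strand): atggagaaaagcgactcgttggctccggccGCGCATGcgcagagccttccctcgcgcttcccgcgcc
Cox6a1 (chr5:115349084-115349150, minus strand): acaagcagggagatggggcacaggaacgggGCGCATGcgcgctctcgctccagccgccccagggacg
Ndufa6 (chr15:82354337-82354403, minus strand): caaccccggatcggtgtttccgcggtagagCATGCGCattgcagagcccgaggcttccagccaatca
Atp5h (chr11:115419921-115419987, minus strand): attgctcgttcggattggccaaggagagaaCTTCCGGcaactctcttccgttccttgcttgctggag
Uqcrh (chr4:116075071-116075110, minus strand): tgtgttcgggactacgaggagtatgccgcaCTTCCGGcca
Among the 15 matched members called lower at 6 h, 1 held the NRF1 word (Ndufa6), 2 the ETS word and 2 the YY1 word (Atp5f1 and Ndufs6). A word match is a description of these letters in this window.

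Per transcript length, the mitochondrial genes stood highest. mt-Cytb, the cytochrome b core of complex III, averaged 7323 CPM per kb over the 12 libraries and mt-Co1, the catalytic core of complex IV, 7188. The 5 mitochondrial complex I genes lay between 2124 (mt-Nd6) and 4293 CPM per kb (mt-Nd1). Nuclear medians were 58.2 CPM per kb for complex I, 69.6 for complex II, 92.5 for complex III, 65.6 for complex IV and 98.5 for complex V. These levels depend on the transcript length used: with the median length of all coding transcripts of a gene, partial ones included, 16 of the 83 nuclear members moved by over 1.5 times.

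Among nuclear members, Atp5b (the catalytic beta subunit of ATP synthase) led with 558 CPM per kb, followed by Cox4i1 (509), Cox6a1 (370), Cox8a (337) and Ndufa4 (308). Atp5a1, the alpha subunit of ATP synthase, had 293 CPM per kb. In complex I, the accessory subunits Ndufa3 (149), Ndufb9 (143) and Ndufb10 (129) stood highest among nuclear members. With the median transcript length that order changed: Ndufs1 led with 188 (46.5 with the length used here), and Ndufa3 had 121. In complex III these were Uqcrh (190), Uqcr10 (153) and Uqcrc1 (a core protein, 127), the last at 393 with the median transcript length. Sdha, the flavoprotein of succinate dehydrogenase, led complex II with 136, ahead of Sdhb (its iron-sulphur subunit, 86.9) and Sdhd (a membrane anchor, 52.3). The lowest of each complex were Ndufb4 (3.60), Sdhc (21.3, a membrane anchor, or 82.97 with the median transcript length), Uqcrb (36.4), Cox4i2 (1.34) and Atp5g2 (1.80). Of these, Ndufb4, Uqcrb and Atp5g2 are among the members with over 20% shared words.

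Several complex IV subunits come as isoform pairs, of which one is known from heart, muscle, lung or testis. In the hippocampus the widely expressed isoform stood far above its partner per kb in every pair. Cox4i1 had 381 times the level of Cox4i2 (lung), Cox8a 175 times that of Cox8b (heart and muscle), and Ndufa4 117 times that of Ndufa4l2. Cox6a1 had 72.0 times the level of Cox6a2, Cox7a2 60.9 times that of Cox7a1 (both minor forms being heart and muscle isoforms), and Cox6b1 33.4 times that of Cox6b2 (testis). The c ring of ATP synthase is made from 3 genes, of which Atp5g3 had 237 CPM per kb, Atp5g1 9.96 and Atp5g2 1.80. The distance between Atp5g3 and Atp5g1 depends on the lengths used, 718.5 and 2675.5 bases in that order, the same under both length choices.

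**Figure D1:**
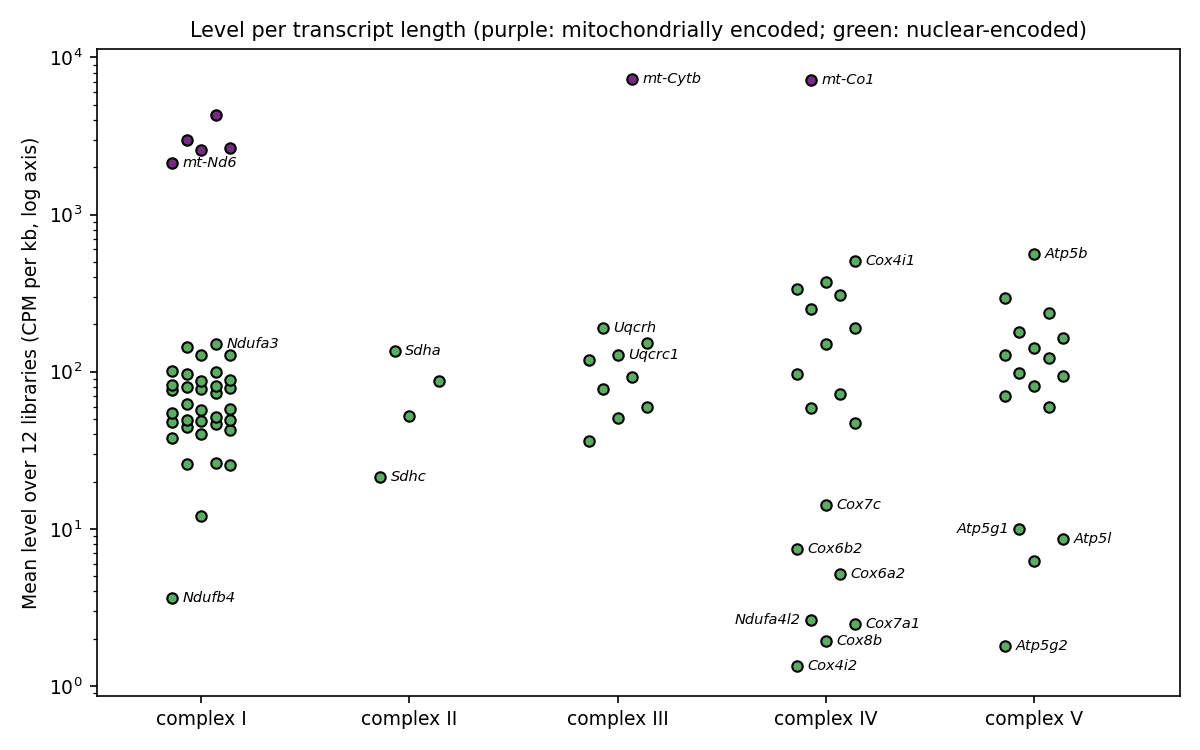
Mean level of each of the 90 genes over 12 libraries, in CPM per kb of transcript on a log axis, by complex; 1 point per gene, purple for mitochondrially encoded and green for nuclear-encoded. The mitochondrial genes lie between 2124 and 7323, all above Atp5b, the highest nuclear member, at 558.

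Across mice, the mitochondrial genes as a set varied more than the nuclear members as a set, and moved as a block. Their summed share of all counts was 2.96%, 2.65% and 4.62% in stigmasterol 6 h, 3.21%, 3.25% and 4.34% in vehicle 6 h, 3.98%, 3.99% and 3.05% in stigmasterol 1 h and 4.31%, 3.03% and 3.98% in vehicle 1 h. Of the 12 libraries, 6 lay at 3.25% or below and 6 at 3.98% or above, and every group held libraries on both sides of that gap. Group means were 3.41 ± 1.06% in stigmasterol 6 h, 3.60 ± 0.642% in vehicle 6 h, 3.68 ± 0.539% in stigmasterol 1 h and 3.77 ± 0.667% in vehicle 1 h (SD, n = 3 each), and differed by less than the spread within groups.

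Within the sum of the 7 genes, mt-Co1 took between 29.5% and 32.1% in every library, mt-Cytb between 21.8% and 24.2%, mt-Nd6, the only one of the 7 on the other strand, between 2.76% and 3.40%, mt-Nd1 between 10.5% and 12.9%, and mt-Nd2 between 7.16% and 9.25%. The highest share was 1.29 times the lowest for mt-Nd2, the widest of the 7, and 1.09 times for mt-Co1. The median within-group SD on the log2 scale was 0.30 for the 7 mitochondrial genes, 0.12 for the 83 nuclear genes and 0.15 for all genes over 1 CPM. mt-Nd1 illustrates the range, with 3229, 2800 and 5181 CPM in stigmasterol 6 h, 3330, 3390 and 5601 in vehicle 6 h, 4584, 4594 and 3289 in stigmasterol 1 h and 5115, 3394 and 4798 in vehicle 1 h. The highest value in each 6 h group belonged to the library with the highest mitochondrial share, and all groups overlapped.

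The nuclear genes held a smaller and steadier share. Their sum was 0.818%, 0.835% and 0.774% of counts in stigmasterol 6 h, 0.801%, 0.743% and 0.699% in vehicle 6 h, 0.844%, 0.877% and 0.871% in stigmasterol 1 h and 0.852%, 0.815% and 0.780% in vehicle 1 h. Stigmasterol 1 h was the highest group at 0.864 ± 0.0176% and vehicle 6 h the lowest at 0.747 ± 0.0514%. Vehicle 6 h replicate 21 was the lowest library for 54 of the 83 genes, and stigmasterol 1 h replicate 8 the highest for 27. The steadiest members were Atp5a1, followed by Sdha, whose highest value was 1.15 times the lowest. Cox8b (4.56 times), Cox6b2 (3.36), Cox7a1 (3.06), Atp5g2 (2.403) and Cox4i2 (2.38) spanned most, all at mean levels under 3 CPM.

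**Figure D2:**
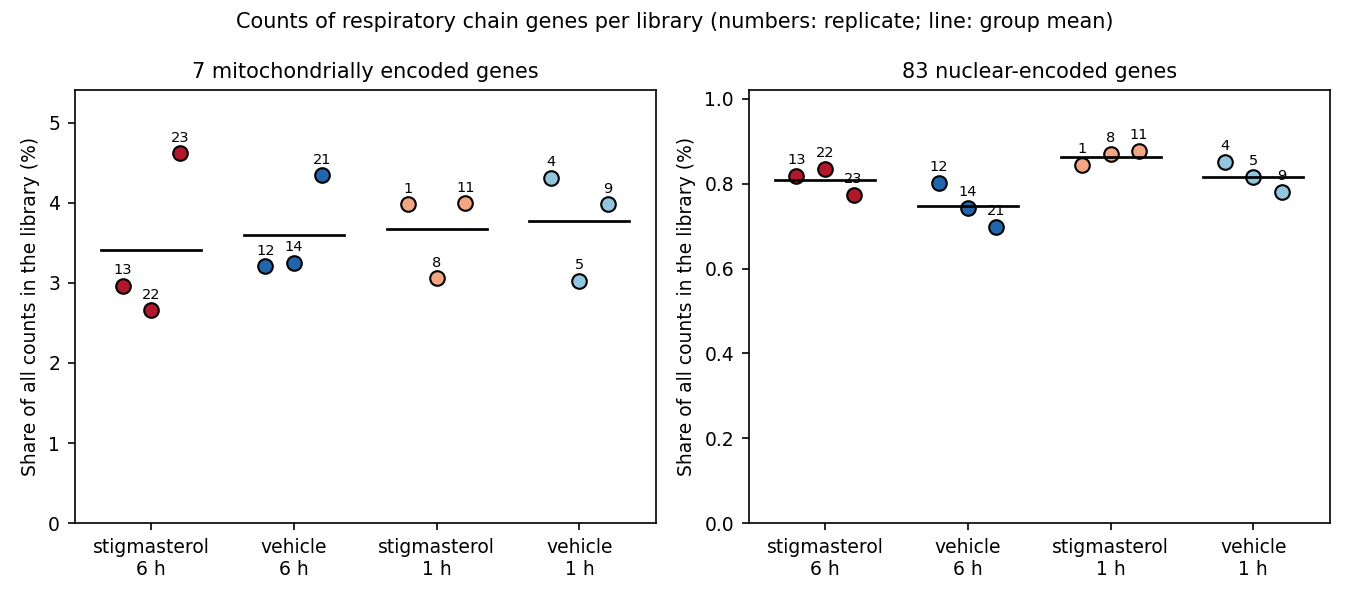
Share of all counts in each library (%) taken by the 7 mitochondrial genes (left) and by the 83 nuclear genes (right), by group; points are mice with replicate numbers, lines group means. Every group holds both low and high mitochondrial shares, while the nuclear share is lowest in vehicle 6 h replicate 21 (0.699%).

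Total counts lay between 27613253 and 42043875 per library. Technical trends differed between libraries. The slope of log2 level on gene length (all exons merged), per doubling, lay between -0.06 (stigmasterol 1 h replicate 8) and 0.05 (vehicle 6 h replicate 21). That on GC content, per 10 points, lay between -0.17 (stigmasterol 6 h replicate 23) and 0.31 (stigmasterol 6 h replicate 22). By their coding transcript, nuclear members are short, with a median of 763 bases against 2924 for all tested coding genes. The library with the lowest length slope was highest for the most nuclear members. Mitochondrial members are poor in GC (median 37.1% against 50.4%), and the library with the highest GC slope had the lowest mitochondrial share. Stigmasterol 6 h replicate 23, with the lowest GC slope, had the highest mitochondrial share. Not every library followed that order: vehicle 1 h replicate 5 had a slope of -0.095 and a share of 3.03%. Whether these trends bear on the shares was not tested. Summed choroid plexus markers, 10 of 10 detected in every library, ranged over 425 to 4514 CPM in stigmasterol 6 h, 809 to 4061 in vehicle 6 h, 1963 to 4886 in stigmasterol 1 h and 57.8 to 2865 in vehicle 1 h, with 57.8 and 77.9 in replicates 4 and 9 of the last. Striatal markers, 7 of 7 detected, summed to 353 CPM in stigmasterol 1 h replicate 8 and to at most 130 CPM elsewhere. In whole tissue, fewer cells of a type and less RNA per cell cannot be told apart.

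The clearest difference was between times. With both injections averaged, 17 nuclear members were lower at 6 h than at 1 h and 0 were higher (edgeR quasi-likelihood test, adjusted p under 0.05). They came from complexes I (5 of 35), III (3 of 9), IV (4 of 18) and V (5 of 17), with none of the 4 complex II genes. Among all genes tested, 7.97% were called in this comparison, 3.92% lower and 4.05% higher. An unadjusted p under 0.05 was met by 43 nuclear members, all lower (13.9% of all genes). The log2 fold change was below 0 for 80 of 83 nuclear members, against 49.3% of all genes, and its median was -0.16, against 0.00 over all genes. Changes were small, between -0.18 and -0.42 on the log2 scale among the 17.

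In complex I, the 5 were Ndufa5 and Ndufa6 (accessory subunits), Ndufb3 (membrane arm), Ndufv2 (an iron-sulphur subunit of the NADH-oxidising module) and Ndufs6. Ndufa5 (chr6:24518666-24528013, GRCm38, minus strand) had 38.1, 35.01 and 43.2 CPM in stigmasterol 6 h and 41.1, 36.1 and 33.8 in vehicle 6 h, against 50.3, 49.2 and 45.8 in stigmasterol 1 h and 52.2, 46.3 and 44.8 in vehicle 1 h. All 6 mice at 6 h lay below all 6 at 1 h, and the log2 fold change was -0.34 ± 0.07 (SE, edgeR adjusted p = 0.0184). Ndufb3 (chr1:58586384-58595964, plus strand) showed the same separation, with 36.1, 34.8 and 38.3 CPM in stigmasterol 6 h and 38.1, 30.2 and 32.5 in vehicle 6 h, against 41.3, 43.1 and 43.2 in stigmasterol 1 h and 48.9, 42.9 and 39.6 in vehicle 1 h. Its log2 fold change was -0.30 ± 0.07 (edgeR adjusted p = 0.0255). Values for Ndufs6, Ndufv2 and Ndufa6 were -0.27, -0.21 and -0.19.

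In complex III, the members called were Uqcrfs1, Uqcrb and Uqcrh. Uqcrfs1 (chr13:30540308-30545362, minus strand), the Rieske iron-sulphur protein that hands electrons to cytochrome c1, had 70.0, 66.9 and 70.3 CPM in stigmasterol 6 h and 62.8, 59.5 and 55.6 in vehicle 6 h, against 74.5, 78.1 and 75.5 in stigmasterol 1 h and 76.0, 75.2 and 70.4 in vehicle 1 h. Every 6 h value was below every 1 h value, by a narrow margin between stigmasterol 6 h replicate 23 and vehicle 1 h replicate 9, and the log2 fold change was -0.23 ± 0.05 (edgeR adjusted p = 0.0187). Uqcrb, a small ubiquinone-site subunit, had the largest fold among the 17, -0.42 ± 0.09 (edgeR adjusted p = 0.0202), with 15.7, 14.8 and 19.5 CPM in stigmasterol 6 h and 18.2, 15.8 and 16.0 in vehicle 6 h, against 22.1, 24.5 and 19.3 in stigmasterol 1 h and 24.8, 22.4 and 20.7 in vehicle 1 h. Times overlapped for Uqcrb in 1 mouse of each stigmasterol group, and 43.4% of its words are shared with other genes. Uqcrh, the hinge protein, stood at -0.24 ± 0.06.

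In complex IV, Ndufa4, Cox7b, Cox5a and Cox7a2 were called. Ndufa4, a complex IV subunit, had 146, 151 and 158 CPM in stigmasterol 6 h and 162, 141 and 132 in vehicle 6 h, against 174, 176 and 178 in stigmasterol 1 h and 213, 170 and 162 in vehicle 1 h (log2 fold change -0.27 ± 0.07, edgeR adjusted p = 0.0370). The times did not overlap for Ndufa4 or for Cox7b (-0.26 ± 0.07), although the highest 6 h and the lowest 1 h value of Ndufa4, both in vehicle mice, were nearly equal. Cox5a and Cox7a2 stood at -0.25 and -0.21.

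In ATP synthase, Atp5f1, Atp5mpl, Atp5g3, Atp5h and Atp5o were called. Atp5f1 (chr3:105942698-105960099, minus strand), subunit b of the peripheral stalk, had the smallest p of the 90 members, with 102, 99.5 and 110 CPM in stigmasterol 6 h and 107, 95.1 and 99.1 in vehicle 6 h, against 129, 131 and 112 in stigmasterol 1 h and 126, 130 and 116 in vehicle 1 h. All 6 h values lay below all 1 h values, and the log2 fold change was -0.28 ± 0.06 (edgeR adjusted p = 0.0174). Atp5o (the OSCP subunit) and Atp5h (subunit d) belong to the same stalk and stood at -0.18 and -0.23. Atp5g3, the c ring gene with the highest level per kb, stood at -0.23. Atp5mpl, a small membrane subunit, had the largest fold of complex V at -0.33. Atp5b and Atp5a1, the beta and alpha subunits, had -0.11 ± 0.06 and -0.08 ± 0.05 and did not pass. Whether they differed from the members called was not tested.

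Over the 90 members, times did not overlap for 9 nuclear genes, all lower at 6 h, where 2.42% of all genes were in that position. These 9 were Atp5f1, Ndufa5, Uqcrfs1, Ndufb3, Atp5o, Ndufa4 and Cox7b among those called, plus Sdhd and Ndufb2 (edgeR adjusted p = 0.0641 and 0.109). The 7 mitochondrial genes had log2 fold changes between -0.21 (mt-Nd2) and -0.05 (mt-Nd4), all below 0, with a median of -0.10, none called and none with an unadjusted p under 0.05. That median was 0.13 with GC content and length offsets and 0.06 without vehicle 1 h replicates 4 and 9.

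**Figure D3:**
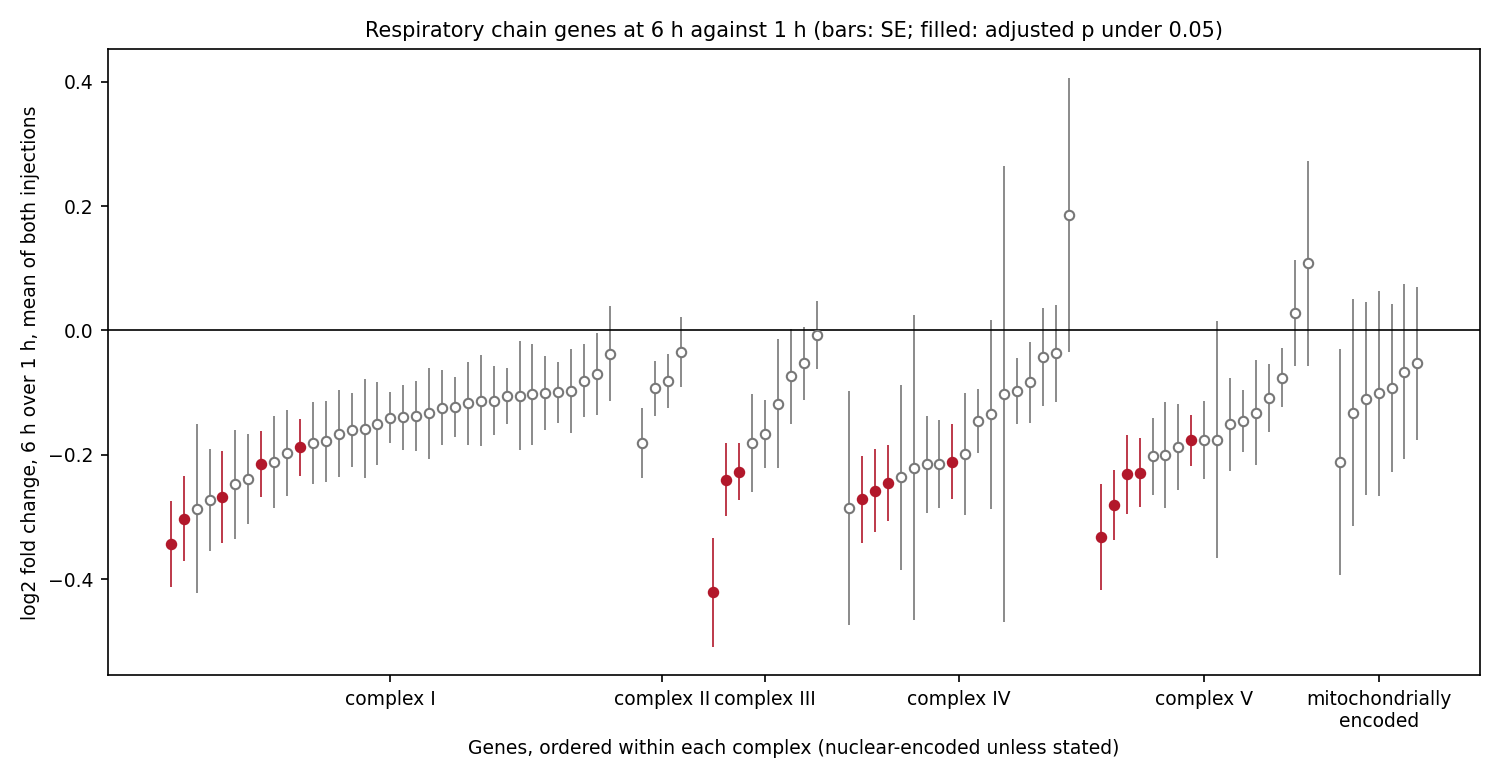
log2 fold change of each member, 6 h over 1 h with both injections averaged, ordered within each complex; bars are SE and filled red points have an adjusted p under 0.05. The 17 called genes, between -0.18 and -0.42, are spread over complexes I, III, IV and V, and 80 of 83 nuclear genes lie below 0.

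**Figure D4:**
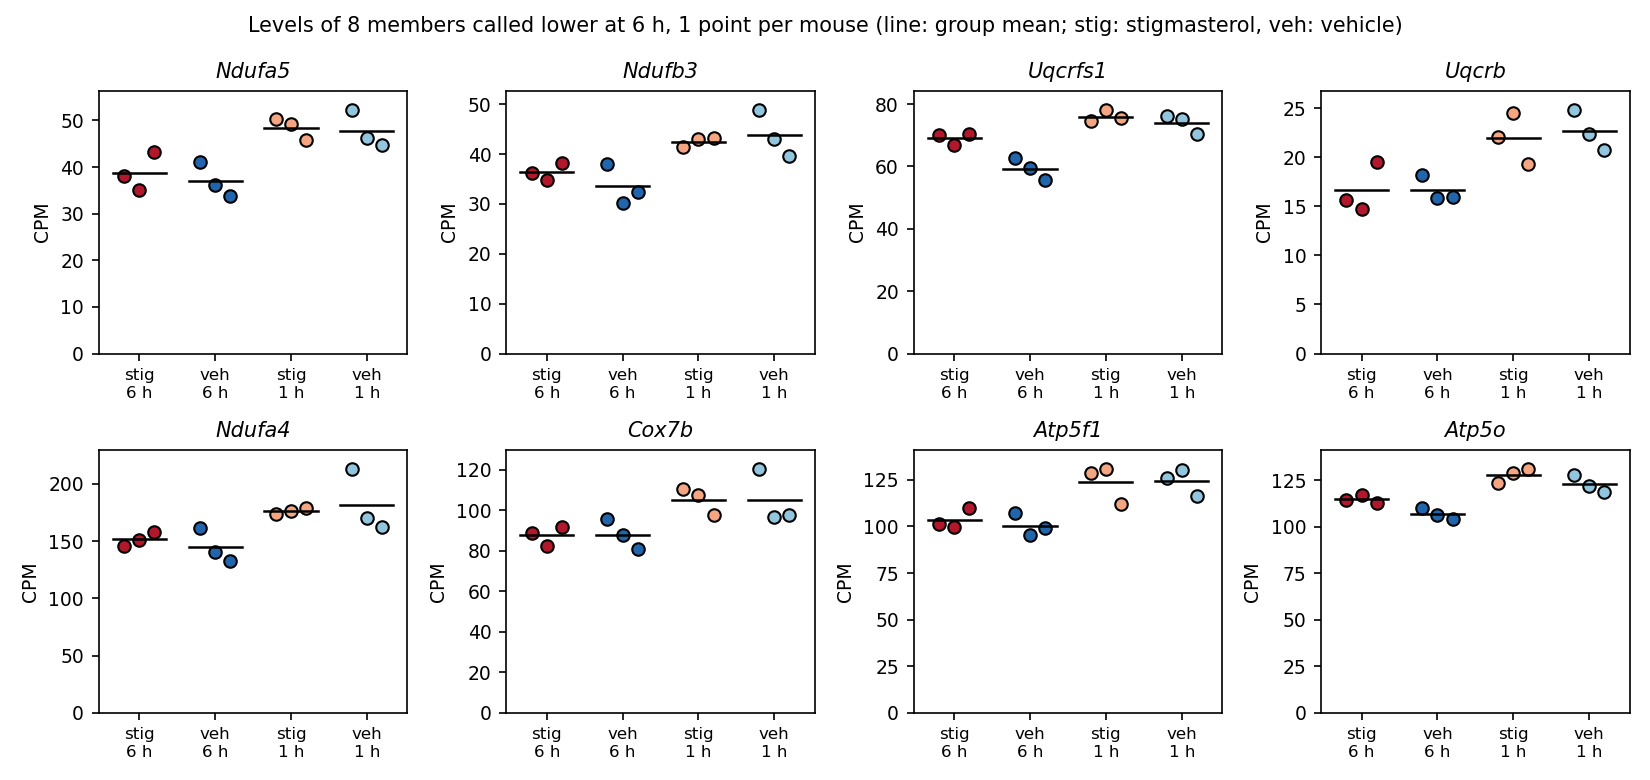
CPM in every mouse for 8 of the 17 genes called lower at 6 h, with the groups on the horizontal axis; points are mice and lines group means. Uqcrb is the panel in which 1 stigmasterol mouse at 6 h (19.5) lies above 1 at 1 h (19.3).

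The number of members called moved with single mice. It was 0 without vehicle 6 h replicate 14 (smallest adjusted p 0.0510), and also 0 without vehicle 1 h replicates 4 and 9 together; leaving out one library at a time gave 3 without vehicle 1 h replicate 5, 4 without stigmasterol 1 h replicate 1 or vehicle 1 h replicate 4, 5 without stigmasterol 1 h replicate 11, 6 without stigmasterol 6 h replicate 13 or 22 or vehicle 6 h replicate 21, 8 without vehicle 1 h replicate 9, 17 without stigmasterol 1 h replicate 8, 19 without vehicle 6 h replicate 12 and 22 without stigmasterol 6 h replicate 23. Calls among all genes moved too, from 1465 of 18382 in the main fit. They were 244 of 18626 without vehicle 6 h replicate 14 and 350 of 18732 without vehicle 1 h replicate 5. Without vehicle 1 h replicates 4 and 9 they were 31 of 19247. Without vehicle 6 h replicate 12 they were 709 of 18654, and without stigmasterol 6 h replicate 23 2738 of 18708. The median of the nuclear members stayed between -0.19 and -0.13 when any 1 library was left out. It was -0.10 with GC content and length offsets, with 10 called (2362 of all genes). It was -0.16 with choroid plexus content as a covariate, with 8 called (1055 of all genes). Among tested coding genes of up to 1000 bases, the median was -0.09 and 67.9% lay below 0; nuclear members of that length had a median of -0.18, with 52 of 54 below 0.

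Within each injection the same contrast was weaker in number. In vehicle mice, Uqcrfs1 alone was called, at -0.32 ± 0.07 (edgeR adjusted p = 0.0478), where 0.675% of all genes were called and 0.212% called lower. It did not pass in 15 of 24 alternatives, among them all 6 that left out a vehicle library. The median of the nuclear members was -0.15, 77 of 83 were below 0 (48% of all genes), and 31 did not overlap between times, all lower at 6 h (17.4% of all genes). An unadjusted p under 0.05 was met by 30, all lower (10.7%), and by 16 without vehicle 1 h replicate 4, 19 without vehicle 6 h replicate 14 and 18 without vehicle 6 h replicate 21. In stigmasterol mice, 0 members were called with edgeR, DESeq2, limma-voom or limma-trend, while edgeR called 0.00544% of all genes and 0% lower, and 20 members had an unadjusted p under 0.05, all lower (4.59% of all genes). That count was 8 without stigmasterol 1 h replicate 11, 11 without stigmasterol 6 h replicate 13, 9 with upper-quartile factors and 10 with GC content and length offsets. For the alternative fits of either injection, the share of all genes at an unadjusted p under 0.05 is not given here. In the main fit of stigmasterol mice the nuclear median was -0.15 and 81 of 83 were below 0 (53.3% of all genes). Times did not overlap for 31 members, all lower (6.61%). The difference between injections in the time effect was tested directly. For Uqcrfs1 it was 0.18 ± 0.09 (unadjusted p = 0.0730, edgeR adjusted p = 1.00), and 0 members were called.

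Other mitochondrial pathways were read out of the same averaged comparison of times, in which 3.92% of all genes were called lower. Of 78 mitochondrial ribosome genes tested, 12 were called lower at 6 h and 0 higher, with a median of -0.13. In the import and folding list, 3 of 10 genes were called lower, namely the matrix chaperonin Hspd1 (-0.25), its partner Hspe1 (-0.36) and the outer membrane receptor Tomm22 (-0.16). Assembly factors called lower were Ndufaf2 for complex I (1 of 15 genes, -0.45 ± 0.11), Coa3 for complex IV (1 of 18, -0.22) and Tmem70 for ATP synthase (-0.34), beside the ATPase inhibitor Atpif1 (-0.22), which made 2 of 4 on that list. The shares of 1 in 15 and 1 in 18 lie near that of all genes. Tmem70 was also called in vehicle mice alone (-0.50 ± 0.10, edgeR adjusted p = 0.0394).

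In central carbon metabolism, Sucla2 (a succinyl-CoA synthetase subunit, -0.31) and Idh3a (isocitrate dehydrogenase, -0.21) were called lower among 16 tricarboxylic acid cycle genes. Ldha (lactate dehydrogenase, -0.23) was the 1 of 20 entries of the glycolysis list called, a share near that of all genes called lower. At an unadjusted p under 0.05 that list held 4 lower and 1 higher. Aldoa entered the list under more than 1 identifier: the 1 higher entry stood at 0.53 and the other at -0.11. None of 19 genes for replication and expression of mitochondrial DNA, of 11 regulators of mitochondrial biogenesis, of 12 mobile carrier genes or of 10 assembly factors of complexes II and III was called in edgeR. At an unadjusted p under 0.05 those lists held 4 lower and 2 higher, 1 lower and 2 higher, 1 lower and 1 higher, and 4 lower and 0 higher genes in that order. Among all 18382 genes tested, 2555 (13.9%) were lower and 2360 higher at that threshold.

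Between injections, no member passed the threshold. Averaged over times, edgeR called 0 of 90 members and 0% of all genes. DESeq2 called 3 members and 100 of all 18382 genes, while limma-voom and limma-trend called 0 members. Nuclear members nevertheless leaned upward: 78 of 83 had a log2 fold change above 0 with stigmasterol, against 50.2% of all genes, with a median of 0.10 against 0.00. Short genes as a class leaned the same way: of tested coding genes of up to 1000 bases, 76.1% lay above 0 with a median of 0.09, and of nuclear members of that length 50 of 54 with a median of 0.12. An unadjusted p under 0.05 was met by 21 members, all higher, against 4.69% of all genes. That count was 11 without stigmasterol 6 h replicate 22, 12 without vehicle 1 h replicate 9 or vehicle 6 h replicate 21, 13 without vehicle 6 h replicate 14, 11 with the choroid plexus covariate, 12 with GC content and length offsets and 8 without vehicle 1 h replicates 4 and 9. Shares of all genes in those fits are not given here, so the counts cannot be set against all genes. The 7 mitochondrial genes had a median of -0.09, with all 7 below 0, and 0.02 without vehicle 6 h replicate 21, -0.19 without stigmasterol 6 h replicate 23 and 0.07 without vehicle 1 h replicates 4 and 9.

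Uqcrq (chr11:53427922-53430831, minus strand), a small ubiquinone-binding subunit of complex III, had the smallest p of the members. It had 63.0, 71.8 and 54.8 CPM in stigmasterol 6 h against 52.7, 48.4 and 42.1 in vehicle 6 h, and 60.6, 72.8 and 70.6 in stigmasterol 1 h against 48.0, 49.0 and 50.6 in vehicle 1 h. All 6 stigmasterol mice lay above all 6 vehicle mice, with an averaged log2 fold change of 0.44 ± 0.08 (edgeR adjusted p = 0.139; DESeq2 adjusted p = 0.000593). Cox8a (chr19:7215153-7217616, minus strand), the widely expressed form of complex IV subunit 8, had 203, 237 and 179 CPM in stigmasterol 6 h against 162, 169 and 148 in vehicle 6 h, and 188, 201 and 239 in stigmasterol 1 h against 177, 155 and 165 in vehicle 1 h. It also did not overlap, at 0.35 ± 0.08 (edgeR adjusted p = 0.193; DESeq2 adjusted p = 0.0130). Uqcrq and Cox8a were the 2 members whose injections did not overlap over both times, where 0.343% of all genes were higher in that way.

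Ndufc1, a small membrane subunit of complex I, had 20.1, 21.6 and 19.9 CPM in stigmasterol 6 h against 19.5, 16.0 and 14.8 in vehicle 6 h, and 23.03, 24.8 and 23.2 in stigmasterol 1 h against 20.7, 19.8 and 18.0 in vehicle 1 h. The injections did not overlap at either time, and the averaged value was 0.29 ± 0.07 (edgeR adjusted p = 0.261; DESeq2 adjusted p = 0.0499). Ndufa12, an accessory complex I subunit, had 0.24 ± 0.07 (edgeR adjusted p = 0.301).

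At 6 h, edgeR, DESeq2, limma-voom and limma-trend called 0 members, and edgeR called 0% of all genes. All 35 nuclear complex I genes and 75 of 83 nuclear members were above 0 (50% of all genes), the median was 0.10, and 8 had an unadjusted p under 0.05, all higher (1.64% of all genes). That count was 4 without vehicle 6 h replicate 14 or 21, 16 without vehicle 6 h replicate 12 and 21 without stigmasterol 6 h replicate 23. The share of all genes in those fits is not given here, so these counts cannot be set against all genes. The groups did not overlap for 9 members, all higher with stigmasterol (3.47%). The smallest p belonged to Uqcrq (0.40 ± 0.11), Uqcrfs1 (0.22 ± 0.07), Cox8a (0.37 ± 0.11) and Ndufa12 (0.29 ± 0.09).

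At 1 h, those 4 tools again called 0 members, and edgeR 0% of all genes. Here 65 of 83 nuclear members were above 0 (49.6% of all genes), with a median of 0.09, and 9 had an unadjusted p under 0.05, all higher (4.97%). That count was 4 without vehicle 1 h replicate 9, 5 with GC content and length offsets, 3 with the choroid plexus covariate, 2 without vehicle 1 h replicates 4 and 9, and 14 with only the groups compared. Here too the share of all genes in those fits is not given. The groups did not overlap for 18 members, all higher with stigmasterol (8.23%). Uqcrq (0.47 ± 0.11), Cox8a (0.34 ± 0.11), Ndufa6 (0.19 ± 0.07) and Ndufc1 (0.28 ± 0.10) had the smallest p. With GC content and length offsets the nuclear median at 1 h was 0.0099, with 38 of 83 below 0, and averaged over times it was 0.03.

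**Figure D5:**
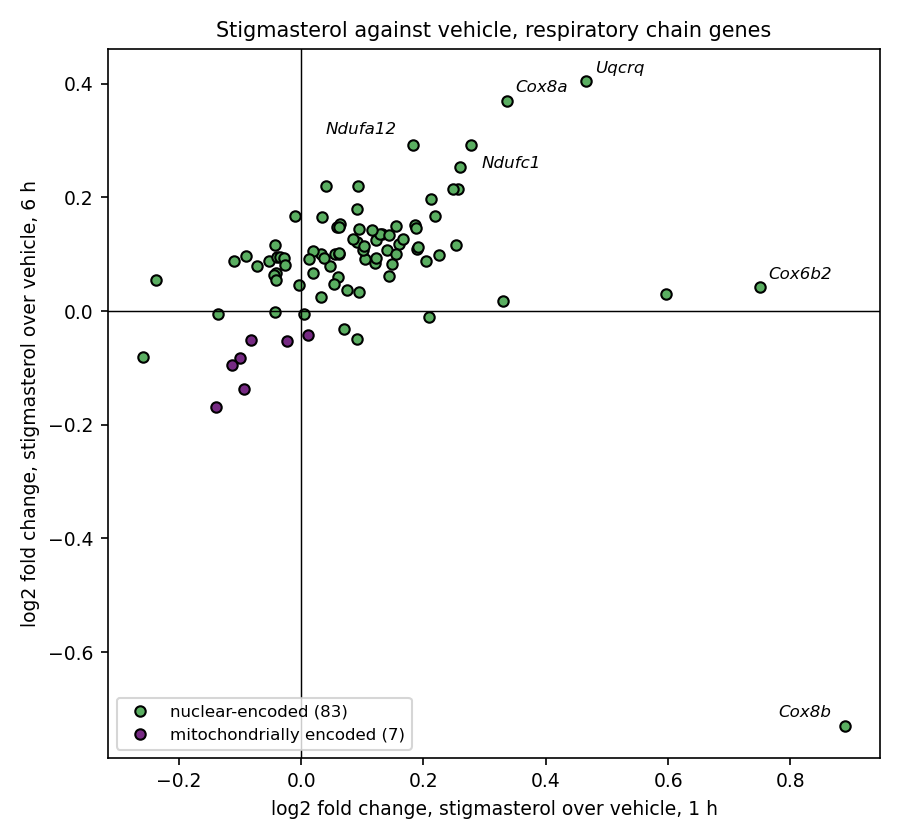
log2 fold change of stigmasterol over vehicle at 1 h (horizontal) and 6 h (vertical) for the 83 nuclear and 7 mitochondrial genes; 1 point per gene. Most nuclear genes lie above 0 on both axes with Uqcrq and Cox8a at the upper right, the mitochondrial genes lie near or below 0, and Cox8b, with a mean of 23.5 counts, stands apart.

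The effect of stigmasterol at 6 h minus that at 1 h gave 0 members (0% of all genes) in edgeR, and 0 members in DESeq2, limma-voom and limma-trend. One member, Cox8b, had an unadjusted p under 0.05 (1.67% of all genes, lower), at -1.62 ± 0.73 (unadjusted p = 0.0445). It had 0.310, 0.908 and 0.274 CPM in stigmasterol 6 h against 0.921, 0.512 and 1.05 in vehicle 6 h, and 0.640, 1.247 and 0.911 in stigmasterol 1 h against 0.280, 0.951 and 0.305 in vehicle 1 h. These are low counts, and the groups overlapped at both times. The 7 mitochondrial genes had a median of -0.08 at 6 h and -0.09 at 1 h with stigmasterol. At 6 h it lay between -0.35 (without stigmasterol 6 h replicate 23) and 0.10 (without vehicle 6 h replicate 21) when 1 library was left out. At 1 h it lay between -0.22 (without vehicle 1 h replicate 5) and 0.03 (without stigmasterol 1 h replicate 8), and was 0.22 without vehicle 1 h replicates 4 and 9, and 0.22 with choroid plexus content as a covariate. The SE of the injection contrast had a median over members of 0.098 (6 h) and 0.097 (1 h).

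Pathway genes outside the chain gave 0 calls between injections in edgeR at 1 h. The smallest p there, in each list other than the mitochondrial ribosome, belonged to Ndufaf8 for complex I assembly (0.73 ± 0.18, edgeR adjusted p = 0.638), Cox14 for complex IV assembly (0.35 ± 0.08, edgeR adjusted p = 0.555), Sdhaf3 for complexes II and III (-0.33 ± 0.15), Tmem70 for complex V (-0.14 ± 0.09), Polrmt, the mitochondrial RNA polymerase (0.20 ± 0.10), Gabpb2 among biogenesis regulators (-0.22 ± 0.11), Mdh2 in the tricarboxylic acid cycle (0.08 ± 0.07), Etfb among mobile carriers (0.18 ± 0.13), Tomm20 in the import list (-0.14 ± 0.08) and Slc2a1, a glucose transporter, in the glycolysis list (0.24 ± 0.15).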

How the data were processed

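RNA of 12 mouse hippocampi was measured by RNA-seq from polyadenylated RNA libraries (TruSeq mRNA, RIN of at least 7, per the labels). The raw table is the authors' read counts per gene. The normalized table is the authors' signal, deposited as each count divided by 1 size factor per library (largest difference 0.140). The tools named in the submitters' processing notes are STAR 2.4.2a, DESeq2 1.10.1, DESeq, HTSeq 0.6.1p1, cutadapt and bcl2fastq 2.17.1.14, on build GRCm38, with no order stated. How multiply mapped reads were counted is not given in the sources used here.

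Counts were tested with edgeR 4.0.16 in R 4.3.3 (filterByExpr, TMM, quasi-likelihood fit, 1 coefficient per group over 12 libraries, 7 contrasts), and p was adjusted by Benjamini-Hochberg over all 18382 genes tested at a threshold of 0.05. Unless another tool is named, adjusted p and SE are from this fit. The common biological coefficient of variation was 0.123. Identifiers were matched to GENCODE M21 for 21501 of 21532 genes. Transcript length is that of the coding transcript with the longest coding sequence, chosen after the median over all coding transcripts was seen to include partial ones. The length slopes and the length offsets used another length, that of all annotated exons of a gene merged, which can be far longer than the coding transcript. A word is a 50-base stretch of an annotated transcript. The procedure was run on simulated counts with planted changes between times. These were drawn without GC, length or choroid plexus trends, so they do not bear on calls moved by such trends. Alternatives were DESeq2 1.42.0, limma 3.58.1 (voom, and trend on the normalized signal), other scalings and filters, only the groups compared, a choroid plexus covariate, splines for GC content and length (5 degrees of freedom), and leaving out libraries.

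The members and lists were chosen with earlier results of these data known. Genes named were all mitochondrial members, members past the threshold, the 4 with the smallest p per contrast, the highest and lowest per complex, isoform families, and members spanning over 2-fold. Pathway genes were named if called (at most 4 a list), otherwise the one with the smallest p at 1 h. Ndufs1 among the levels, Ndufb2 and Sdhd among the time values, and Atp5f1, Atp5h, Atp5l, Atp5o, Ndufs3 and Cox5a among the shared words, were named for those properties after they were seen.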

Additional observations from a re-analysis of the deposited data

How the results depend on the processing

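Neither the 17 members called for 6 h against 1 h nor Uqcrfs1 in vehicle mice changed sign under the alternatives run; called genes of other pathways were not rerun. For 6 h against 1 h averaged over injections, the 17 members called became 5 with upper-quartile factors, 8 with the choroid plexus covariate, 10 with GC content and length offsets, 0 without vehicle 1 h replicates 4 and 9, and 0 to 22 when 1 library was left out (0 without vehicle 6 h replicate 14). Calls over all genes were 1422, 1055, 2362 and 31 in those settings, in that order, against 1465 in the main fit. They lay between 244 and 2738 when 1 library was left out. Upper-quartile factors moved the median of all genes in that contrast to 0.05. In vehicle mice, the 1 member called became 0 with upper-quartile factors, DESeq2 size factors, limma-voom, no filter, the choroid plexus covariate or without vehicle 1 h replicates 4 and 9, 3 with GC content and length offsets, 11 with only the groups compared, 12 with the DESeq2 Wald test, and 0 to 5 when 1 library was left out. For vehicle mice, calls over all genes in those settings are not given here. The member counts in vehicle mice therefore cannot be set against all genes or read as specific to the respiratory chain. For stigmasterol averaged over times, DESeq2 called 3 members (100 of all 18382 genes). With 1 library left out, edgeR called 0 to 1 members (0 to 26 of all genes). At 1 h the median of nuclear members was 0.0099 with GC content and length offsets, and that of mitochondrial members 0.22 with the choroid plexus covariate and 0.22 without vehicle 1 h replicates 4 and 9. For the effect of stigmasterol at 6 h minus that at 1 h, the mitochondrial median was -0.44 with the covariate. As a share of nuclear genes' counts, nuclear members held 0.901% in stigmasterol 1 h and 0.852% in vehicle 1 h. The median length of all coding transcripts, tried after the data were seen, gave nuclear medians of 78.4, 85.0, 125, 77.0 and 124 CPM per kb for complexes I to V. The cause was not tested. No paired analysis was possible because the groups share no replicate number. With 3 mice a group, folds near the SE are not detectable, and folds several times the SE could also fail to pass. Uqcrq at 1 h, at 0.47 ± 0.11, did not pass (edgeR adjusted p = 0.555).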
